A study of Mus musculus with 8 samples.

Results

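The genes Cdkn1a, Mdm2, Ccng1, Bax, Bbc3, Trp53inp1, Eda2r, Phlda3, Zmat3 and Plk2 are targets of the transcription factor p53, and their mRNA levels were followed in mouse hearts with and without an active Cre recombinase. They were chosen by name as known p53 targets, and each symbol matched 1 row of the gene table, so that 10 of 23045 genes are described here. All 10 passed the filter on low values, a mean normalized read count of at least 1, which left 20313 genes tested.

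Total RNA of hearts was sequenced in 8 libraries, and the labels do not say which parts of the heart were taken. The 4 WT libraries came from Mettl3 lox/lox mice, which carry loxP sites around Mettl3 and no Cre. The 4 Mettl3 KO libraries came from Mettl3 lox/lox mice that also carried alphaMHC-MerCreMer, a Cre recombinase between mutated estrogen receptor domains, made in cardiomyocytes from the alphaMHC (Myh6) promoter and active only with tamoxifen. Per the study's methods, mice of both genotypes were 10 to 16 weeks old and received tamoxifen into the abdomen at 100 µg per g body weight on 7 consecutive days. The time from the last injection to the collection of the hearts is not given in the sources used here. METTL3 is the enzyme that writes N6-methyladenosine (m6A) onto RNA. No group among these samples carried MerCreMer without loxP-flanked Mettl3, so loss of Mettl3 and presence of active Cre cannot be told apart. The labels number the libraries and do not say that each was a separate animal, so p-values measure the spread between libraries.

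The protein p53 is held at a low level by MDM2, a ubiquitin ligase that marks it for destruction and whose gene is itself switched on by p53. DNA breaks activate the kinases ATM and ATR, which free p53 from MDM2, and p53 then binds DNA elements near its targets and raises their transcription. Cdkn1a, Ccng1 and Plk2 act on cell cycle arrest, while Bax, Bbc3, Eda2r and Trp53inp1 belong to the cell death arm. Cre cuts DNA at loxP sites and can also act at related sequences of the genome, and tamoxifen-activated MerCreMer is known to provoke a DNA damage response in cardiomyocytes at high doses.

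Sequences that match the p53 consensus can be read in the promoters of some of these genes. RefSeq promoter windows (build GRCm38.p6, 300 bases, 250 of them before the transcription start) were matched by symbol for 8 of the 10 genes, with 11 windows in all, and Trp53inp1 and Zmat3 were not matched. Each window was searched for the p53 consensus decamer, an element of 10 bases that reads the same on both strands, and for a full site of 20 bases made of a pair of adjacent decamers. A full site had to keep the core C and G of both decamers and was allowed 1 mismatch. Cdkn1a and Ccng1 are shown because a window of each holds a full site, in capitals, and that window of Cdkn1a also holds a separate decamer, likewise in capitals. Both are written from 5′ to 3′ in the direction of the gene.
Cdkn1a, chr17:29090866-29090978, plus strand: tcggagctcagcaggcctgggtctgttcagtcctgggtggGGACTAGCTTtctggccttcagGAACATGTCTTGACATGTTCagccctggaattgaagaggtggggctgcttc
Ccng1, chr11:40755422-40755521, minus strand: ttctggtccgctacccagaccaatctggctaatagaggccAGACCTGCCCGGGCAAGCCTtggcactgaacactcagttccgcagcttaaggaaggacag

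The full site of Cdkn1a ends 31 bases before the transcription start of its window, and that of Ccng1 ends 175 bases before the start of its own. A full site with at most 1 mismatch was present in 22 of 32851 mouse promoter windows, or 0.067%, and in 2 of the 11 windows of these genes. Bax and Mdm2 are shown because their windows hold a decamer without a mismatch, in capitals, and no full site.
Bax, chr7:45467050-45467139, minus strand: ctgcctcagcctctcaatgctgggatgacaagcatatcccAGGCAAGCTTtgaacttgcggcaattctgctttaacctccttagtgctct
Mdm2, chr10:117710895-117710984, minus strand: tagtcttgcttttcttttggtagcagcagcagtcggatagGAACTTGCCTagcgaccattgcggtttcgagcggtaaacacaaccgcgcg

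A perfect decamer was found in 8.36% of all windows and in 4 of the 11 windows of these genes. The windows of Bbc3, Eda2r, Phlda3 and Plk2 held neither element, nor did a further Cdkn1a window (chr17:29093519-29093818). These matches describe letters in a short window. They show neither binding nor its absence, since p53 elements also lie in introns and farther upstream.

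The labels were first checked on the targeted gene. Mettl3 stood at 105, 133, 118 and 107 normalized read counts in the WT libraries against 74, 68, 69 and 78 after deletion, a log2 fold change of -0.67 (limma, SE 0.10, adjusted p = 0.000184). Esr1, which shares its receptor sequence with MerCreMer and whose count cannot separate the transgene from the endogenous gene, stood at 13 to 20 in WT and at 693 to 851 in Mettl3 KO libraries. Depth was estimated from the gaps between low values, at 2730757 to 3062476 reads in a WT library and 2631471 to 3053469 reads in a Mettl3 KO library. Of 8 cardiomyocyte markers 1 was called lower in Mettl3 KO hearts, where 7.91% of all genes were called in either direction. Their summed level was 23778 to 25059 in WT and 22225 to 25034 in Mettl3 KO libraries. The called marker was Ryr2, while the other 7 had positive log2 fold changes that did not pass, and the list median was 0.06. Markers of some other cell types moved with genotype. Of 8 fibroblast markers 7 were called higher, with sums of 3648 to 4172 against 4711 to 5671, and of 8 endothelial markers 4 were called lower, with sums of 5172 to 5361 against 4466 to 4867. Of 6 atrial markers 5 were called higher, with sums of 464 to 711 against 842 to 1675, but not alike in all libraries. Bmp10 was listed at 0 in all 4 WT libraries and in Mettl3 KO replicate 1, and stood at 195, 158 and 358 in Mettl3 KO replicates 2, 3 and 4. Myl7 stood at 26, 21, 0 and 23 in WT and at 23, 65, 90 and 119 in Mettl3 KO libraries. Mettl3 KO replicate 1 was thus at the WT level for both, and WT replicate 3 was the lowest of the atrial sums. Lymphocyte markers (sums of 22 to 34 against 21 to 37, 0 of 7 tested called) and red blood cell markers (174 to 285 against 123 to 199, 0 of 5 called) were low in both groups. All 5 red blood cell markers had negative log2 fold changes, with a median of -0.33. Of these 2 stood at an unadjusted limma p under 0.05, beside 20.6% of all genes. Macrophage sums were 1295 to 1582 against 1309 to 1537, with 1 of 8 markers called lower. Smooth muscle and pericyte sums were 4719 to 5136 against 4381 to 4680, also with 1 of 8 called lower and with 3 positive and 5 negative changes. Counts of 1 of 8 lie near the share of all genes called. In these bulk libraries, fewer cells of a type and less RNA per cell cannot be told apart, and the part of these shifts in the values below was not tested.

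None of the 10 p53 target genes passed the test between genotypes. With limma, 0 of 10 had an adjusted p under 0.05, against 7.91% of all genes tested (1607 of 20313, 958 higher and 649 lower in Mettl3 KO hearts), and with limma voom the count was also 0. At a share of 7.91%, a count of 0 among 10 genes sets them apart from no other genes. At an unadjusted p under 0.05 there were 3 of 10, Mdm2 with a positive and Eda2r and Bax with negative changes, where 20.6% of all genes stood below that limit. Values without overlap between the genotypes were seen for 1 of 10 genes, Mdm2, against 11.5% of all genes. Of the log2 fold changes 4 were positive and 6 negative, with a median of -0.02 beside -0.01 over all genes. In 7 of 10 genes the change was smaller in size than 0.17, the median size over all genes. The 95% confidence interval held 0 for 7 genes, and for each of the 10 genes its upper end lay below 1, a doubling on the log2(value + 1) scale used for every fold change here. These intervals are for bulk heart RNA, in which Mettl3 itself stayed at 62.4% of WT. They do not bound a change confined to cardiomyocytes, the cells that made Cre.

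**Figure D1:**
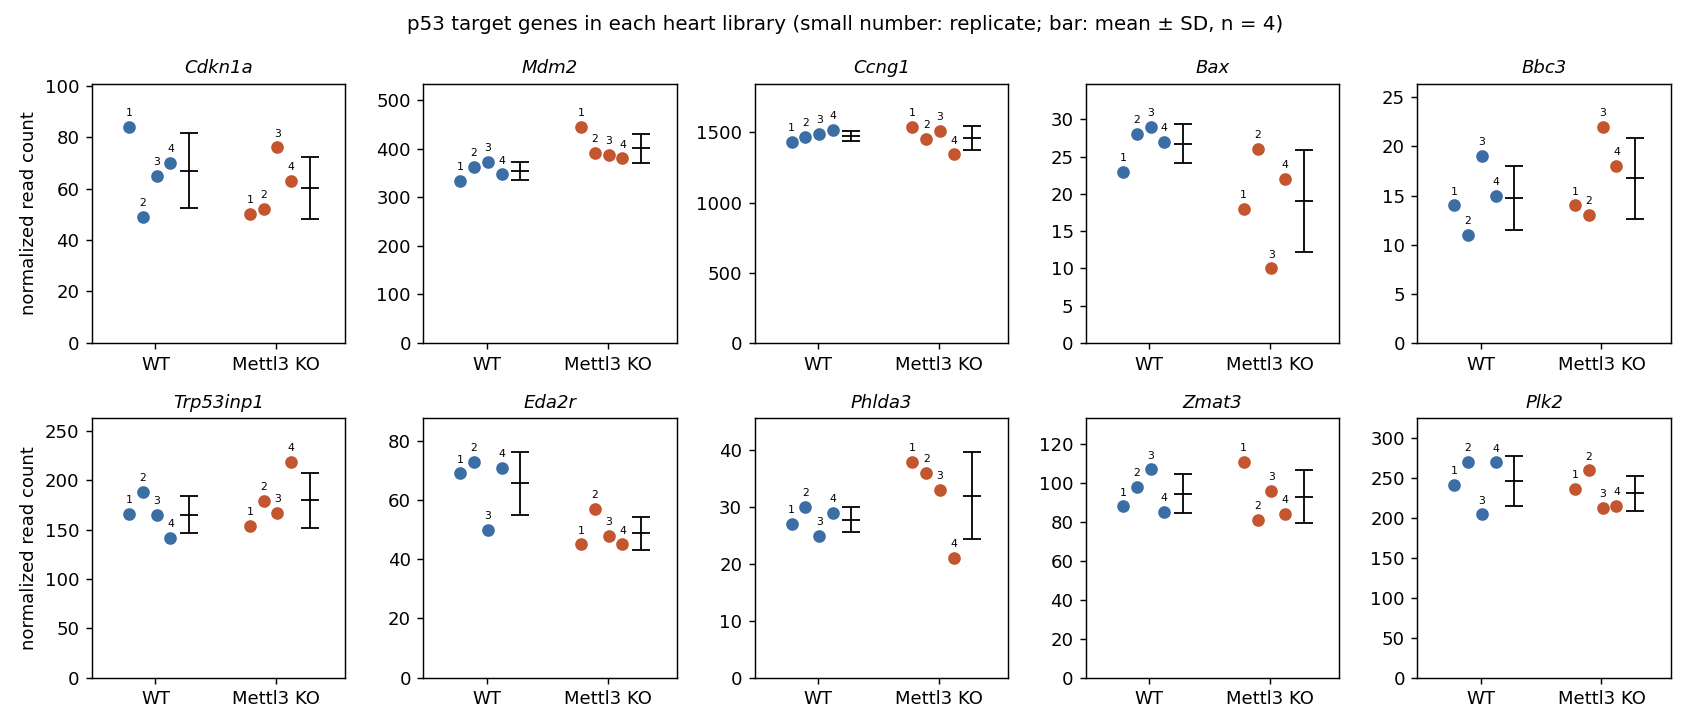
Normalized read counts of the 10 p53 target genes (vertical axis, linear and starting at 0, scaled for each gene) in the 4 WT (blue) and 4 Mettl3 KO (orange) heart libraries. Small numbers give the replicate, and black bars the mean ± SD (n = 4). Only the Mdm2 groups do not overlap, at 333 to 373 in WT and 380 to 445 in Mettl3 KO libraries.

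The feedback inhibitor Mdm2 (ENSMUSG00000020184, mm39 chromosome 10, 117524780 to 117546663, minus strand), which carries the decamer shown above, was the 1 gene of the 10 whose groups did not overlap. It stood at 333, 363, 373 and 347 normalized read counts in the WT libraries against 445, 391, 387 and 380 in those of Mettl3 KO hearts. Every Mettl3 KO library lay above every WT library, and Mettl3 KO replicate 1 lay well above the other three. Means were 354 ± 17.6 and 401 ± 29.8, respectively (SD, n = 4). The difference of 0.18 on the log2 scale (SE 0.06, 95% confidence interval 0.05 to 0.30, limma unadjusted p = 0.00824) did not pass after adjustment (limma adjusted p = 0.0804). Leaving out Mettl3 KO replicate 1 gave 0.13 (limma adjusted p = 0.223). It did not pass in any of 18 alternatives, in which the limma adjusted p was 0.0631 to 0.290.

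Among the arrest genes, Cdkn1a (ENSMUSG00000023067, chromosome 17, 29309950 to 29319701, plus strand) encodes p21, the inhibitor of cyclin-dependent kinases through which p53 halts the cell cycle, and is the gene most often read as a sign of p53 activity. The WT libraries held 84, 49, 65 and 70 normalized read counts and the Mettl3 KO libraries 50, 52, 76 and 63. Both the highest and the lowest of the 8 values belonged to WT libraries, so that the Mettl3 KO values lay wholly within the WT range. The means of 67.0 ± 14.4 and 60.3 ± 12.0 (SD, n = 4) gave a log2 fold change of -0.15 (limma, SE 0.16, adjusted p = 0.681). On this scale the 95% confidence interval ran from 0.723-fold to 1.13-fold of the WT level. The SD was 21.6% of the mean in WT hearts, where counting noise at that level alone gives 12.1%. Without WT replicate 1, the highest library, the change was -0.03, and without WT replicate 2, the lowest, it was -0.28.

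Ccng1 (ENSMUSG00000020326, chromosome 11, 40639379 to 40646138, minus strand) encodes cyclin G1, which recruits a phosphatase to MDM2, and carries the second full site shown above. Its values were 1431, 1466, 1488 and 1520 normalized read counts in WT against 1540, 1451, 1509 and 1343 in Mettl3 KO libraries. The highest and the lowest value were both from Mettl3 KO libraries, replicates 1 and 4. As the most abundant of the 10 transcripts it also gave the tightest comparison, 1476 ± 37.4 against 1461 ± 86.7 (SD, n = 4). Its log2 fold change was -0.02 (limma, SE 0.04, adjusted p = 0.888), with a 95% confidence interval of -0.11 to 0.07, and without Mettl3 KO replicate 4 its sign changed to 0.023.

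Plk2 (ENSMUSG00000021701, chromosome 13, 110531580 to 110537378, plus strand) encodes a stress-responsive polo-like kinase. It stood at 241, 270, 204 and 269 normalized read counts in WT libraries and at 236, 259, 212 and 215 in Mettl3 KO libraries. The Mettl3 KO values again lay within the WT range, with WT replicate 3 lowest of all. This gave a log2 fold change of -0.09 (SE 0.09, 95% confidence interval -0.27 to 0.09, limma adjusted p = 0.635). Without WT replicate 3 the change was -0.18, and without WT replicate 2 it was -0.04.

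In the cell death arm, Bax (ENSMUSG00000003873, chromosome 7, 45111121 to 45116322, minus strand) encodes the protein that opens the outer mitochondrial membrane, and had the lowest mean relative to WT of the 10 genes. It stood at 23, 28, 29 and 27 normalized read counts in WT and at 18, 26, 10 and 22 in Mettl3 KO libraries. In 3 of 4 Mettl3 KO libraries the value lay below every WT value, while Mettl3 KO replicate 2 overlapped them. The Mettl3 KO libraries were widely spread, with an SD of 36.0% of the mean against 9.83% in WT. That WT spread lay below the 19.1% that counting noise alone gives at this level. Means of 26.8 ± 2.63 and 19.0 ± 6.83 (SD, n = 4) gave a log2 fold change of -0.54 (SE 0.24, 95% confidence interval -1.05 to -0.04, limma unadjusted p = 0.0356, limma adjusted p = 0.199). Much of this came from 1 library, since without Mettl3 KO replicate 3, at 10, the change was -0.28 (limma adjusted p = 0.540).

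Bbc3 (ENSMUSG00000002083, chromosome 7, 16042318 to 16052130, plus strand) encodes PUMA, which binds and neutralizes the protective BCL-2 proteins. It had the fewest normalized read counts of the 10 genes, with 14, 11, 19 and 15 normalized read counts in WT against 14, 13, 22 and 18 in Mettl3 KO libraries. The groups overlapped, and the spread in WT, an SD of 22.4% of the mean, was no larger than the 25.7% that counting noise gives at this level. A log2 fold change of 0.17 was obtained (limma, SE 0.25, adjusted p = 0.787). Its 95% confidence interval ran from 0.783-fold to 1.61-fold of the WT level, and changes within it are not excluded. With 1 library left out the change was 0.034 (without Mettl3 KO replicate 3) to 0.29 (without WT replicate 3).

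Eda2r (ENSMUSG00000034457, chromosome X, 96377446 to 96420822, minus strand) encodes a receptor of the TNF receptor superfamily for ectodysplasin A2. Its values were 69, 73, 50 and 71 normalized read counts in WT against 45, 57, 48 and 45 in Mettl3 KO libraries. Of the WT libraries 3 lay above every Mettl3 KO library, and WT replicate 3 fell among them. The means were 65.8 ± 10.6 and 48.8 ± 5.68 (SD, n = 4), and the log2 fold change was -0.42 (SE 0.14, 95% confidence interval -0.71 to -0.12, limma unadjusted p = 0.00718, limma adjusted p = 0.0736). Without WT replicate 3 the change was -0.54 and passed (limma adjusted p = 0.0162), the sole alternative of 18 in which any of the 10 genes passed. Over those alternatives the limma adjusted p was 0.0162 to 0.208.

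Trp53inp1 (ENSMUSG00000028211, chromosome 4, 11156431 to 11174379, plus strand) encodes a nuclear stress protein that acts in p53-dependent death and in autophagy. The WT libraries held 166, 188, 165 and 142 normalized read counts and the Mettl3 KO libraries 154, 179, 167 and 219. Apart from Mettl3 KO replicate 4, the highest of the 8, the Mettl3 KO values lay inside the WT range. The log2 fold change of 0.12 (SE 0.10, 95% confidence interval -0.09 to 0.32, limma adjusted p = 0.584) was 0.017 without that library.

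Phlda3 (ENSMUSG00000041801, chromosome 1, 135693857 to 135696874, plus strand) encodes a protein that competes with the survival kinase AKT for membrane lipids. It stood at 27, 30, 25 and 29 normalized read counts in WT and at 38, 36, 33 and 21 in Mettl3 KO libraries. The Mettl3 KO libraries split, with replicates 1, 2 and 3 above every WT library and replicate 4 below every one. The log2 fold change was 0.17 (SE 0.19, 95% confidence interval -0.23 to 0.57, limma adjusted p = 0.705), or 0.35 when Mettl3 KO replicate 4 was left out (limma adjusted p = 0.297). It shrank to 0.077 without Mettl3 KO replicate 1 and to 0.10 without Mettl3 KO replicate 2.

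Zmat3 (ENSMUSG00000027663, chromosome 3, 32388941 to 32420163, minus strand) encodes a zinc finger protein that binds RNA and acts in splicing downstream of p53. With 88, 98, 107 and 85 normalized read counts in WT against 111, 81, 96 and 84 in Mettl3 KO libraries, its groups covered nearly the same range. The log2 fold change of -0.03 (SE 0.11, 95% confidence interval -0.26 to 0.20, limma adjusted p = 0.933) turned to 0.033 without WT replicate 3, to 0.034 without Mettl3 KO replicate 2, and to 0.017 without Mettl3 KO replicate 4.

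**Figure D2:**
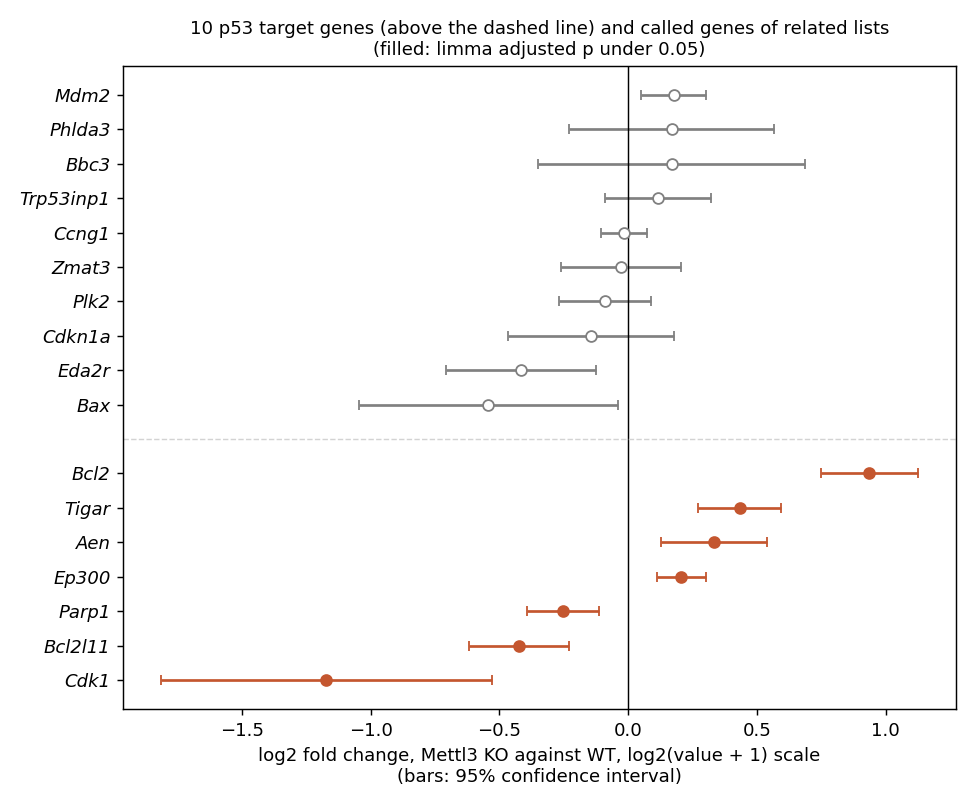
Log2 fold changes between Mettl3 KO and WT hearts on the log2(value + 1) scale (horizontal axis), with 95% confidence intervals as bars, for the 10 p53 target genes (above the dashed line) and for the genes of related lists that passed (below it). Open grey points have a limma adjusted p of 0.05 or more and filled orange points one below it. The 10 p53 targets lie between -0.54 for Bax and 0.18 for Mdm2, and none is filled.

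Read library by library, the 10 genes did not move together in Mettl3 KO hearts. The number of genes above the WT mean was 4, 4, 7 and 3 in Mettl3 KO replicates 1 to 4, and the median log2 ratio to the WT mean was -0.07, -0.03, 0.03 and -0.15. Mettl3 KO replicate 1 held the highest of the 8 values for 4 genes (Mdm2, Ccng1, Phlda3 and Zmat3), yet lay below every WT library for Bax and Eda2r. Mettl3 KO replicate 4 lay below every WT library for 5 genes (Ccng1, Bax, Eda2r, Phlda3 and Zmat3) and above every one for Mdm2 and Trp53inp1. No Mettl3 KO library stood above all WT libraries for more than 4 of the 10 genes.

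**Figure D3:**
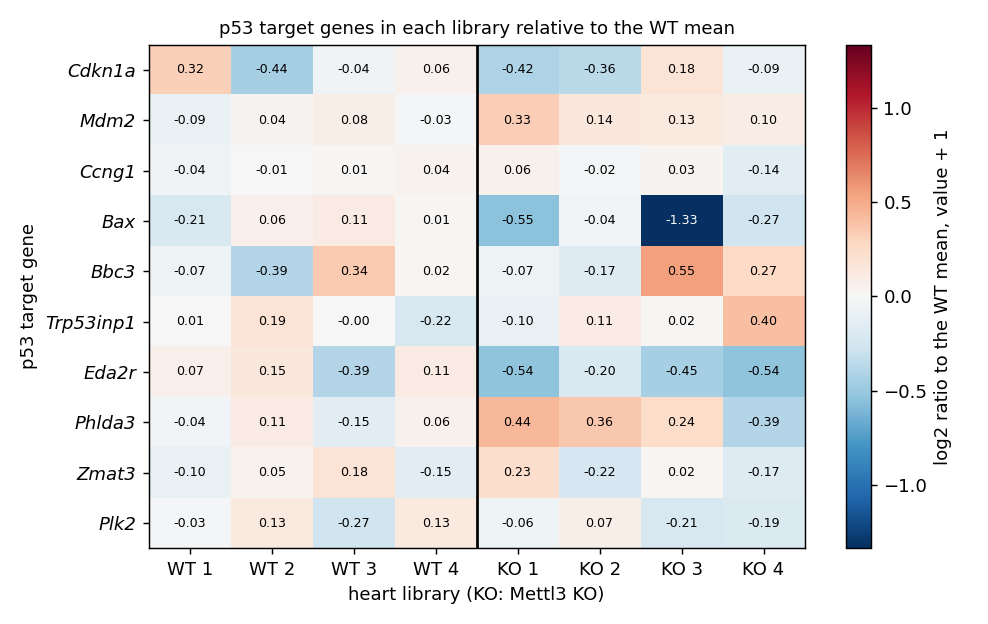
Log2 ratio of each library (horizontal axis) to the WT mean, computed on normalized read counts plus 1, for each of the 10 p53 target genes (vertical axis), with red for higher and blue for lower values. The Mdm2 row is positive in all 4 Mettl3 KO libraries and the Bax and Eda2r rows are negative in all 4, while the other rows hold both signs. The lowest single value, -1.33, is that of Bax in Mettl3 KO replicate 3.

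Levels of different genes were compared as normalized read counts per kilobase of exon. In WT hearts Ccng1 led with 420.3 ± 10.7 per kilobase (SD, n = 4), followed by Mdm2 at 69.6 ± 3.47, Plk2 at 54.8 ± 6.92 and Trp53inp1 at 25.5 ± 2.90. Cdkn1a at 18.9 ± 4.07, Phlda3 at 17.8 ± 1.42 and Bax at 17.0 ± 1.67 did not differ beyond their SD. The SD ranges of Trp53inp1 and Cdkn1a also met. The order ended with Eda2r at 11.2 ± 1.80, Zmat3 at 8.26 ± 0.876 and Bbc3 at 6.94 ± 1.56 per kilobase, where Zmat3 and Bbc3 also lay within their SD. The arrest genes Ccng1 and Plk2 and the feedback gene Mdm2 were thus the most abundant of these p53 target transcripts in WT hearts.

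Genes that control p53 were read next from a list of 15, of which 13 were tested and Trp73 and Cdkn2a were not matched. Trp53 itself stood at 45, 53, 47 and 63 normalized read counts in WT and at 34, 41, 36 and 54 in Mettl3 KO libraries. These groups overlapped, and the log2 fold change of -0.34 (SE 0.16, 95% confidence interval -0.67 to -0.01) did not pass (limma adjusted p = 0.234). Mdm4, the partner of MDM2 that masks the activation domain of p53, stood at 562 to 606 in WT and at 528 to 560 in Mettl3 KO libraries, with no overlap and a log2 fold change of -0.12 (limma adjusted p = 0.125). Mdm4 thus lay on the other side of WT from Mdm2, and neither passed. The 1 of 13 that passed, beside 7.91% of all genes, was Ep300, the acetyltransferase that serves p53 and many other factors as a coactivator. It rose from 676, 663, 657 and 697 to 754, 819, 782 and 754 normalized read counts, a log2 fold change of 0.21 (limma, SE 0.05, adjusted p = 0.00518). The list median was -0.05.

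A wider list of 30 other p53 targets, all tested, held 2 genes that passed, both higher in Mettl3 KO hearts, where 7.91% of all genes passed in either direction. Their median log2 fold change was 0.05, with 20 positive and 10 negative values. The summed level of the list was 3725 to 4000 in WT and 4158 to 4257 in Mettl3 KO libraries, without overlap. For the 10 genes described first the sums overlapped, at 2476 to 2576 against 2410 to 2651. Sums follow the most abundant genes, and these differences were not tested. Tigar, which encodes a fructose bisphosphatase that slows glycolysis, rose from 234, 283, 310 and 268 to 416, 365, 354 and 341 normalized read counts. All 4 Mettl3 KO libraries lay above all 4 WT libraries, with a log2 fold change of 0.43 (limma, SE 0.08, adjusted p = 0.000854). Aen, an exonuclease gene of the death arm, stood at 81, 106, 107 and 92 in WT and at 125, 114, 122 and 124 in Mettl3 KO libraries, with a log2 fold change of 0.33 (limma, SE 0.10, adjusted p = 0.0394). That call was lost in 10 of 18 alternatives. Among them were limma voom (limma adjusted p = 0.0507), and the fits without WT replicate 1 (limma adjusted p = 0.150), WT replicate 4 (0.100) or Mettl3 KO replicate 1 (0.0716), 2 (0.0615), 3 (0.102) or 4 (0.105).

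By role, the 11 other targets of arrest and stress held 0 genes that passed, beside 7.91% of all genes, and 2 at an unadjusted limma p under 0.05, beside 20.6%, with a median of 0.06. Those 2 were Sesn1 and Gdf15. Sums over the 11 genes were 1024 to 1095 in WT and 1115 to 1152 in Mettl3 KO libraries, without overlap. The stress sensor Sesn1, with the highest normalized read counts of them, stood at 438, 446, 424 and 444 normalized read counts in WT and at 472, 492, 471 and 466 in Mettl3 KO libraries, without overlap. Its log2 fold change was 0.12 (limma, SE 0.05, adjusted p = 0.169). The antiproliferative gene Tob1 stood at 209 to 226 and 231 to 254, a log2 fold change of 0.13 (limma adjusted p = 0.248). Gdf15, which encodes a secreted stress factor, was at the lower limit of detection, with 0, 6, 1 and 1 in WT against 10, 7, 2 and 5, and these values overlapped (log2 fold change 1.46, limma adjusted p = 0.106). The 9 other death targets had a median of 0.05 with 1 gene called (Aen), and the 10 targets of repair and metabolism a median of 0.04 with 1 gene called (Tigar), again beside 7.91% of all genes. Sums of the death targets overlapped, at 1044 to 1104 in WT and 1103 to 1154 in Mettl3 KO libraries. Those of repair and metabolism were 1609 to 1861 against 1923 to 1951, without overlap. Tigar, at 234 to 310 in WT and 341 to 416 in Mettl3 KO libraries, is part of these last sums. Sesn1 is part of the sums of arrest and stress, and no sum was taken without either gene.

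Upstream of p53, the list of 21 genes of DNA break sensing and repair held 1 gene that passed, beside 7.91% of all genes. Parp1, the sensor of strand breaks that builds poly(ADP-ribose), fell from 302, 315, 288 and 273 to 267, 235, 230 and 256 normalized read counts, a log2 fold change of -0.25 (limma, SE 0.07, adjusted p = 0.0213). The call was lost without WT replicate 1 (limma adjusted p = 0.0678), WT replicate 2 (0.0876), Mettl3 KO replicate 2 (0.0795) or Mettl3 KO replicate 3 (0.0930). Over the list 15 log2 fold changes were negative and 6 positive, and the median was -0.09. Of 8 endothelial markers 4 were called lower in the same libraries, and their part in this was not tested.

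Downstream, 2 of 19 genes of the BCL-2 family and caspases passed, in opposite directions, beside 7.91% of all genes. Bcl2, which protects the mitochondrial membrane against BAX, stood at 161, 215, 178 and 216 normalized read counts in WT and at 433, 334, 356 and 349 in Mettl3 KO libraries. It rose by 0.94 on the log2 scale (limma, SE 0.09, adjusted p = 8.77e-07), and its groups lay far apart. Bcl2l11, which encodes the death-promoting protein BIM, fell from 167, 156, 184 and 163 to 103, 143, 128 and 127, a log2 fold change of -0.42 (limma, SE 0.09, adjusted p = 0.00576). Neither is counted here among the p53 targets. Set beside the genes described first, Bcl2 was higher, Bcl2l11 was lower, and Bax and Bbc3 did not pass. The list median was 0.03.

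Relatives of the arrest genes were few, so that at the shares of all genes (7.91% called, 20.6% at an unadjusted p under 0.05) counts of 0 set them apart from no other genes. Of 6 other inhibitors of cyclin-dependent kinases 5 were tested and 0 passed, with 0 at an unadjusted p under 0.05 in limma. Cdkn1b, with the highest normalized read counts of them, stood at 224 to 249 normalized read counts in WT and 212 to 234 in Mettl3 KO libraries (log2 fold change -0.05, limma adjusted p = 0.733), and Cdkn1c at 92 to 117 and 93 to 108 (log2 fold change -0.02, limma adjusted p = 0.932). Among the 4 other polo-like kinase genes 0 passed, and Plk4, with the highest normalized read counts of them, stood at 21 to 38 and 27 to 43 (log2 fold change 0.16, limma adjusted p = 0.725). Plk3 had 12 to 15 and 7 to 13 (log2 fold change -0.46, limma adjusted p = 0.378). Of the cyclin G relatives, Ccng2 stood at 91 to 121 and 89 to 110 (log2 fold change -0.04, limma adjusted p = 0.910), and Ccni at 298 to 307 and 304 to 337 (log2 fold change 0.08, limma adjusted p = 0.457). For both of these families the count at an unadjusted p under 0.05 was also 0.

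The 12 genes of the mitotic cell cycle, several of which are repressed when p53 and p21 are active, had the median farthest from 0 among the lists of the p53 pathway. Of their log2 fold changes 11 were negative, the median was -0.58 beside -0.01 over all genes, 6 of 12 stood at an unadjusted limma p under 0.05 (20.6% of all genes), and 1 of 12 passed (7.91% of all genes). Cdk1, the kinase that drives entry into mitosis, fell from 15, 24, 12 and 18 to 11, 7, 4 and 7 normalized read counts, a log2 fold change of -1.17 (limma, SE 0.31, adjusted p = 0.0201). The call was lost without WT replicate 2 (limma adjusted p = 0.0954), WT replicate 4 (0.0639), Mettl3 KO replicate 2 (0.0511) or Mettl3 KO replicate 3 (0.0816). WT means in this list ran from 2.75 to 349 normalized read counts, and most were no higher than the 17.25 of Cdk1. At such low values log2 changes spread widely, and no test over the list as a set was run. The summed level of the list ranged from 347 to 845 in WT and from 330 to 474 in Mettl3 KO libraries, so that WT replicate 3, at 347, lay inside the Mettl3 KO range. Cdkn1a did not pass in these hearts, as given above. The part of p53 and p21 in these values was not tested, nor was that of the endothelial markers, 4 of 8 called lower.

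**Figure D4:**
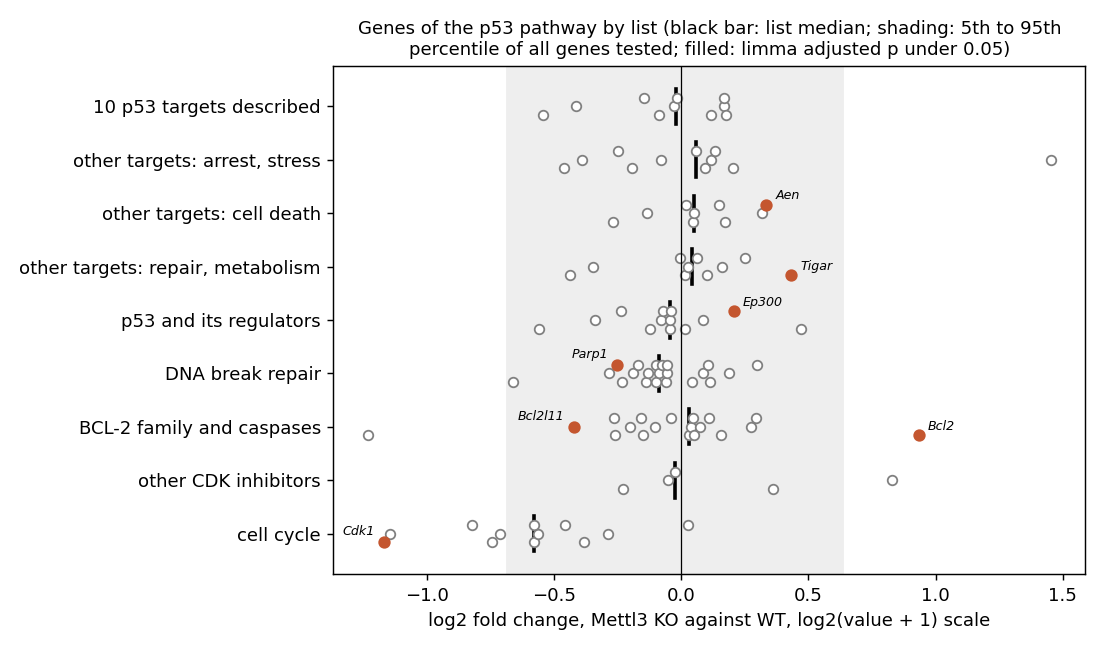
Log2 fold changes between Mettl3 KO and WT hearts on the log2(value + 1) scale (horizontal axis) for each gene of 9 lists (rows, points spread vertically for legibility). Black bars mark list medians, grey shading the 5th to 95th percentile of all genes tested (-0.68 to 0.64), and filled orange points a limma adjusted p under 0.05. The medians of the 10 p53 targets and of the other target lists lie between -0.02 and 0.06, and that of the cell cycle list lies at -0.58.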

How the data were processed

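Stranded single-end total RNA libraries of mouse heart were analysed, 4 of each genotype. Per the study's methods and processing notes, the authors trimmed reads with Trimmomatic 0.39, aligned them to mm39 with STAR 2.7.11a, removed duplicates with Picard 3.1.1 and multi-mapping, ribosomal and mitochondrial reads, and used featureCounts 2.0.4 for strand-specific counts over exons, without reads that touched several genes. The authors normalized the counts with DESeq2 1.36.0 and rounded them, so the deposited values are a score and not raw counts. Tests with a count model were therefore not run, and limma voom was run on the deposited values only as an alternative.

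The 2732 genes whose mean value was under 1 were left out. For the other 20313 genes, limma 3.58.1 (R 4.3.3) was run on log2(value + 1), with genotype alone in the model and the variance trended on the mean. Tests were two-sided, with Benjamini-Hochberg adjustment over all genes tested and a threshold of 0.05. A fold change on this scale understates that of low genes. The fit was tested on simulated data.

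The 10 genes and all lists were chosen with earlier results of these data known. Named besides the 10 genes were Mettl3, Esr1, Trp53, Mdm4 and every gene of the p53 pathway lists that passed, or the 2 genes of highest mean value of a list in which none did. Cell type markers are given as counts and sums, and named only where listed at 0 in a library. Trp53, Mdm4 and Gdf15, which did not pass, and the marker Ryr2 were added after their values were seen. Exon lengths came from an annotation of build GRCm38, matched by gene identifier, and are the union of all annotated exons of a gene. Alternatives changed the pseudocount, filter, scaling, variance model and replicate block, or left out each library in turn.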

Additional observations from a re-analysis of the deposited data

Results flagged for a closer look

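Mdm2 in Mettl3 KO hearts held 1 library far from the others. Replicate 1 stood at 445 normalized read counts and the other three at 380 to 391, so that the gap to the nearest was 0.831 of the whole range of the group. Over the 42 groups searched in this way (19 genes, the library totals and the estimated reads, in each genotype) this was the 1 that stood out, where chance gives 2.1, or about 1 in 20 groups.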

How the results depend on the processing

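Of the 10 p53 target genes 0 were called in the fit as reported and in each alternative except the one without WT replicate 3, so that the fits leaving out 1 library gave 0 to 1 (Eda2r at -0.54). Over all genes 1607 were called, 321 without the mean-variance trend, and 1019 (without Mettl3 KO replicate 3) to 1596 (without Mettl3 KO replicate 1) with 1 library left out. Of the 105 tested genes of the related lists 7 were called, 1 (Bcl2) without the trend, and 4 (without Mettl3 KO replicate 2 or 3) to 10 (without WT replicate 3) with 1 library left out. Without the trend the limma adjusted p was 0.0990 for Tigar, 0.143 for Ep300, 0.115 for Bcl2l11, 0.158 for Aen, 0.164 for Parp1 and 0.102 for Cdk1. The sign of Ccng1 turned without Mettl3 KO replicate 4 (0.023), over a range of -0.043 to 0.023, and that of Zmat3 without WT replicate 3 (0.033), Mettl3 KO replicate 2 (0.034) or Mettl3 KO replicate 4 (0.017), over a range of -0.12 to 0.034. The other 8 genes kept their sign in all 18 alternatives.

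Replicate numbers are shared by the genotypes, and the labels do not say whether they pair the libraries. Deviations from the group means correlated at -0.04 to 0.09 over the 4 pairs with the same number. Over the 12 pairs with different numbers they correlated at -0.18 to 0.20. With 4 libraries in each group, these values show no pairing by number but cannot exclude it. With the replicate number as a block 1346 genes were called, 1304 of them among the 1607, and 0 of the 10 p53 targets. Aen lost its call under this block (limma adjusted p = 0.0685). Counting noise relative to the WT mean was largest for Bbc3 (25.7%), Bax (19.1%) and Phlda3 (18.7%), whose group means were 14.8 to 32.0 normalized read counts. No alternative varied the depth.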
